A study of Mus musculus with 203 samples.

Results

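Expression of 10 genes of lipid mediator signaling was measured by RNA-seq in the airways and parenchyma of mouse lungs. The genes were taken by name, without a threshold on their values, from a table of 43346 gene identifiers. They encode 8 receptors and 2 enzymes: the platelet-activating factor (PAF) receptor Ptafr, the PAF-degrading enzyme Pla2g7, the PAF-forming enzyme Lpcat2, the leukotriene receptors Cysltr1, Cysltr2 and Ltb4r1, and the prostanoid receptors Ptger2, Ptger4, Ptgir and Tbxa2r. All 10 passed the filter on low counts in every main fit.

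The mice were female Balb/C animals aged 18 to 20 weeks. At 3 weeks, house dust mite (HDM) extract, an allergen used to model asthma, or phosphate buffered saline (PBS) had been given into the nose on 5 days of each week. PBS mice gave 11 airway and 12 parenchyma libraries, and HDM mice 10 of each. At 11 weeks, HDM or PBS had been combined with cigarette smoke (CS) or normal air (AIR), with HDM given 3 times a week from week 4 and smoke on 5 days a week for 8 weeks. These 4 combinations are named PBS.AIR, HDM.AIR, PBS.CS and HDM.CS. Each was also sampled with dexamethasone (DEX), a glucocorticoid, given in week 11, which makes 16 groups of 10 libraries over both tissues. The tissues were pieces separated by blunt dissection, so each library mixes many cell types. No label ties an airway library to the parenchyma library of the same mouse, and p-values measure the spread between libraries.

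PAF is a phospholipid made from membrane lipids by acetylation, and Lpcat2 is the acetyltransferase that forms it in inflammatory cells. Pla2g7, a phospholipase secreted largely by macrophages, removes the acetyl group and so inactivates PAF. Ptafr, a G protein-coupled receptor on myeloid cells, carries the PAF signal. The leukotrienes and prostanoids come from arachidonic acid. Cysteinyl leukotrienes act on Cysltr1, the receptor blocked by montelukast, and on Cysltr2, and leukotriene B4 attracts neutrophils and T cells through Ltb4r1. Prostaglandin E2 acts on Ptger2 and Ptger4, which raise cyclic AMP, as does the prostacyclin receptor Ptgir. The thromboxane receptor Tbxa2r contracts smooth muscle and activates platelets.

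The 250 bases before the RefSeq start of 5 receptor genes on GRCm38.p6 are shown because these receptors moved in opposite directions after 3 weeks of HDM. Ptafr, Ltb4r1, Ptgir and Cysltr2 rose at least 2-fold in both tissues, whereas Tbxa2r fell in both. The windows are chr4:132563817-132564066 for Ptafr, chr14:55765712-55765961 for Ltb4r1, chr7:16906240-16906489 for Ptgir and chr10:81328453-81328702 for Tbxa2r, all on the plus strand, and chr14:73049115-73049364 on the minus strand for Cysltr2. Capitals mark GAGGAA, the core of the site of the transcription factor PU.1, or its reverse complement TTCCTC.
Ptafr: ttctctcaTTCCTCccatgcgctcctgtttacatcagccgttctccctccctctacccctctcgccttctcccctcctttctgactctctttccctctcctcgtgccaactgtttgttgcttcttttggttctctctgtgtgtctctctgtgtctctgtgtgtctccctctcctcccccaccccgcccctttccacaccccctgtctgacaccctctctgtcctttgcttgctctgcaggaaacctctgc
Ltb4r1: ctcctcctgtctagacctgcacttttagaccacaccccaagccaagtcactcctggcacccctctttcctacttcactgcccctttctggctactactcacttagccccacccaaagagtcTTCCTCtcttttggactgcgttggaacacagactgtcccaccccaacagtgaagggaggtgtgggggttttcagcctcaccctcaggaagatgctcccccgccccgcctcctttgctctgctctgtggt
Ptgir: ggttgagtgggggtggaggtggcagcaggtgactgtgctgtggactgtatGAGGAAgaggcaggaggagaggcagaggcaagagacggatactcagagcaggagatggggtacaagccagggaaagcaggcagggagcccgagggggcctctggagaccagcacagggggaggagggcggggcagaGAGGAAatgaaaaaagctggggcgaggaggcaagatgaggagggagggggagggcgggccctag
Cysltr2: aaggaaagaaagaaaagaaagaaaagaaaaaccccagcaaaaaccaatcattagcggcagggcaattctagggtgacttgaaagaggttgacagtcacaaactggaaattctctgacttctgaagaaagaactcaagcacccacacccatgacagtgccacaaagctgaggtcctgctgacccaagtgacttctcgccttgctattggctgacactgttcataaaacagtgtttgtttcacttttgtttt
Tbxa2r: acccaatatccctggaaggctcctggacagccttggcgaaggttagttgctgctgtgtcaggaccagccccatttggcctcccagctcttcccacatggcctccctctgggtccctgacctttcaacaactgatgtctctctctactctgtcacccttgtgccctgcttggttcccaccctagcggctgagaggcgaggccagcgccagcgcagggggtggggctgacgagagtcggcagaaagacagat

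These letters were searched on both strands because the study placed Ptafr downstream of Spi1, which encodes PU.1. They lay on the opposite strand in Ptafr, 242 bases before the start, and in Ltb4r1, and on the same strand in Ptgir, 200 and 64 bases before it. They were not in the windows of Cysltr2 and Tbxa2r, nor in those of the other 4 genes of the set with a window. Of 32851 windows of the same length in the reference, 23.3% held them. Another motif, AGAACA with its reverse complement TGTTCT, the half-site of the glucocorticoid receptor, was in 16.1% of windows and in those of Pla2g7 and Ptger2. A match describes letters and does not show that a factor binds.

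Libraries held between 13003154 and 40240733 counts, with a median of 28090684. The median count of the genes over libraries ran from 35 for Cysltr2, whose lowest was 12, to 1647 for Pla2g7, so Cysltr2 had the fewest counts behind its values. Exons of Pla2g7, Lpcat2, Ptger2 and Ptger4 overlap those of genes on the other strand, by 82 to 1015 bases, and whether counting used strand is not stated. Tissue labels were checked by the log2 ratio of smooth muscle to alveolar marker genes. Its median was -4.30 in airway and -6.79 in parenchyma libraries. The ranges overlapped, with 14 of 101 airway libraries inside the parenchyma range and 38 parenchyma libraries inside the airway range. The codes X173 and X174 break the alternation of airway and parenchyma codes. Their ratios, -7.63 for X173, labelled parenchyma, and -3.00 for X174, labelled airway, lay inside the range of the labelled tissue. X63, X32, X81 and X70 differed most from their group means over all genes. Levels below are in CPM, counts scaled to a common library size after normalization, each given as the lowest, median and highest library of a group. A gene was said to rise or fall when its limma adjusted p-value was under 0.05.

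Exposure to HDM for 3 weeks was followed by higher expression of most of the set in both tissues. In the airway 8 of the 10 genes rose and 1 fell, where 34.1% of all genes tested rose and 40.5% fell. In the parenchyma 9 rose and 1 fell, against 33.4% and 44.3%. The median log2 fold change (log2FC) of the set was 1.32 in airway and 1.80 in parenchyma, and that of all genes -0.07 and -0.13. Rises of at least 2-fold were made by 6 genes in airway and 7 in parenchyma, where 12.1% and 14.5% of all genes tested rose that much. HDM and PBS libraries did not overlap for 4 genes in airway and 7 in parenchyma, against 20.8% and 39.7% of all genes.

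Ptafr (ENSMUSG00000056529.7), on chromosome 4 at 132564067 to 132582683 of GRCm38, and Pla2g7 rose most. Ptafr was at 9.76, 14.5 and 26.96 CPM in PBS airways and at 57.2, 158.1 and 211 CPM in HDM airways. In parenchyma the PBS libraries lay at 9.91, 13.3 and 18.02 CPM and the HDM libraries at 188.5, 235.5 and 303.5 CPM. Every HDM library was above every PBS library of its tissue. The rise was 8.27-fold in airway (log2FC 3.05, standard error 0.18, adjusted p = 5.1e-18) and 17.1-fold in parenchyma (4.09, 0.20, adjusted p = 4.1e-21). Because the study picked Ptafr from these 3 week samples, its rise there is not independent evidence.

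Pla2g7, which breaks PAF down, lies on chromosome 17 at 43568098 to 43612201. Its airway libraries were at 14.9, 24.15 and 38.8 CPM after PBS and 94.1, 203.6 and 323.5 CPM after HDM. The parenchyma libraries were at 15.2, 20.1 and 27.5 CPM after PBS and 219, 311 and 449 CPM after HDM. The groups did not overlap in either tissue. Pla2g7 rose 8.05-fold in airway (log2FC 3.01, standard error 0.16, adjusted p = 2.9e-19) and 14.3-fold in parenchyma (3.84, 0.17, adjusted p = 4e-22).

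Lpcat2, which forms PAF, lies on chromosome 8 at 92855339 to 92919279. Its airway libraries were at 10.5, 11.6 and 16.35 CPM after PBS and 23.7, 41.6 and 75.1 CPM after HDM. In parenchyma they were at 7.37, 9.38 and 12.01 CPM and at 45.7, 67.1 and 78.1 CPM. Here too the groups were separate. The increase was 3.47-fold in airway (log2FC 1.79, standard error 0.14, adjusted p = 5.4e-15) and 6.29-fold in parenchyma (2.65, 0.15, adjusted p = 4.2e-19).

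**Figure D1:**
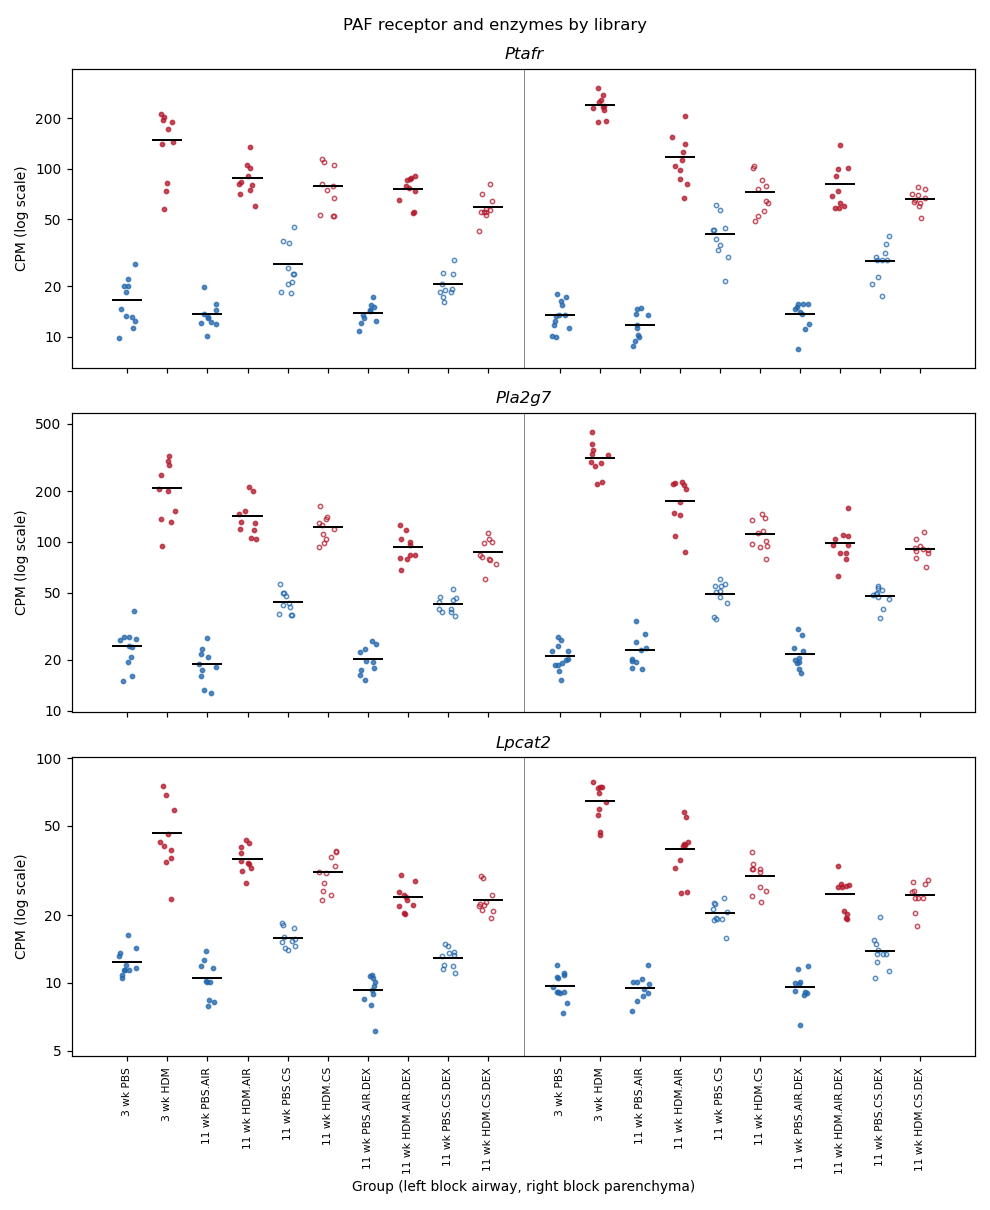
CPM of Ptafr, Pla2g7 and Lpcat2 in each library, on a log axis, by group, with airway groups on the left and parenchyma groups on the right. Red points are HDM and blue points PBS libraries, open circles are smoke-exposed and black bars are group means. For Ptafr the 10 HDM parenchyma libraries at 3 weeks lie between 188.5 and 303.5 CPM, above all 12 PBS libraries.

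In whole tissue, more cells of a type and more RNA per cell cannot be told apart. Summed over 6 macrophage marker genes, the median level was 209 CPM in PBS (131.7 to 229) and 531 CPM in HDM airways (258 to 721.5), and 228 and 741 CPM in parenchyma (178.9 to 315 and 646 to 817). Of the 6, 5 rose and 1 fell in airway, and 5 rose in parenchyma. The sum over 5 neutrophil markers, all of which rose in each tissue, went from 223 to 964 CPM in airway and from 422 to 1618 CPM in parenchyma. None of these markers was at 0 in all libraries of a group. Ptafr was 8.53% of the macrophage sum in the median PBS airway library and 27.7% in the median HDM one, and 6.06% and 32.2% in parenchyma. Against the neutrophil sum it was 6.47% and 15.0% in airway, and 3.07% and 13.4% in parenchyma. Pla2g7 went from 11.4% to 39.5% of the macrophage sum in airway and from 9.4% to 42.8% in parenchyma, and Lpcat2 from 6.06% to 9.83% and from 4.17% to 8.61%. Markers of several other leukocytes were higher as well. The sum of 4 eosinophil markers went from 2.27 to 19.1 CPM in airway and from 1.92 to 16.1 CPM in parenchyma. Of these markers 3 rose in airway and 2 in parenchyma. Of 4 monocyte markers 3 rose and 1 fell in each tissue, with sums of 136.1 to 256 CPM in PBS and 326 to 495 CPM in HDM airways and of 157.2 to 251 and 360 to 729.8 CPM in parenchyma. All 6 T cell markers rose in each tissue, and B cell markers rose, 4 of 4 in airway and 3 of 4 in parenchyma. The sum over 5 mast cell markers was lower after HDM. Its median went from 76.8 to 61.7 CPM in airway, where the ranges overlapped. In parenchyma it went from 109.1 CPM (99.9 to 148.6) to 58.5 CPM (41.8 to 73.3). The part of these cells in the results was not tested.

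Among the leukotriene receptors, Ltb4r1, on chromosome 14 at 55765962 to 55768494, responded most in parenchyma. There it was at 1.23, 1.82 and 2.78 CPM in PBS libraries and at 8.56, 10.9 and 13.95 CPM in HDM libraries. The airway libraries were at 1.76, 2.73 and 5.09 CPM and at 3.21, 6.83 and 10.4 CPM. The groups separated fully in parenchyma, while in airway 7 of 10 HDM libraries were above all PBS libraries. Ltb4r1 rose 5.23-fold in parenchyma (log2FC 2.39, standard error 0.20, adjusted p = 3e-14) and 2.26-fold in airway (1.18, 0.18, adjusted p = 3.2e-07). It was 0.456% of the neutrophil sum in the median PBS parenchyma library and 0.575% in the median HDM one.

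Cysltr1 and Cysltr2, which bind the same ligands, differed in level and in response. Cysltr2 was scarce, at 0.507, 0.684 and 0.976 CPM in PBS airways and 1.502, 2.11 and 2.98 CPM in HDM airways. In parenchyma it was at 0.7115, 0.976 and 1.72 CPM after PBS and 1.84, 2.455 and 2.95 CPM after HDM. No HDM library overlapped with PBS in either tissue, and the rise was 2.76-fold in airway (log2FC 1.47, standard error 0.15, adjusted p = 1.5e-11) and 2.33-fold in parenchyma (1.22, 0.14, adjusted p = 5.3e-10). Cysltr1, on the X chromosome, had the higher level and moved little, from a median of 10.98 to 14.2 CPM in parenchyma (log2FC 0.29, standard error 0.10, adjusted p = 0.0088). In airway its medians were 10.6 and 11.8 CPM and the difference was not called (log2FC 0.18, 95% interval -0.01 to 0.37, adjusted p = 0.084), though 4 alternative analyses called it.

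Of the prostanoid receptors in the set, Ptgir, on chromosome 7 at 16906490 to 16910905, rose most. Its PBS airway libraries were at 4.44, 6.58 and 10.3 CPM and its HDM airway libraries at 9.80, 25.9 and 42.9 CPM, with 9 of 10 above all PBS libraries. In parenchyma the PBS libraries lay at 3.11, 5.54 and 7.71 CPM and the HDM libraries at 25.6, 40.4 and 52.9 CPM, without overlap. The rise was 3.34-fold in airway (log2FC 1.74, standard error 0.22, adjusted p = 2.2e-09) and 7.05-fold in parenchyma (2.82, 0.24, adjusted p = 4.4e-14). Ptgir was 3.47% of the macrophage sum in PBS and 4.86% in HDM airways, and 2.57% and 5.52% in parenchyma.

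The prostaglandin E2 receptors rose by less. Ptger4 went from a median of 14.9 to 23.9 CPM in airway (log2FC 0.75, standard error 0.12, adjusted p = 4.4e-07). In parenchyma it went from 12.5 to 28.1 CPM (1.17, 0.13, adjusted p = 5.8e-11), and there the groups did not overlap. Ptger2 gained 0.36 in airway (0.12, adjusted p = 0.0046) and 0.31 in parenchyma (0.11, adjusted p = 0.0081) on the log2 scale, and its groups overlapped in both tissues. As a share of the macrophage sum both were lower after HDM, Ptger4 at 5.36% and 3.58% and Ptger2 at 5.85% and 2.16% in PBS and HDM parenchyma.

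Tbxa2r, on chromosome 10 at 81328731 to 81335172, was the one gene of the set that fell. It was at 2.335, 4.57 and 7.65 CPM in PBS airways and 2.12, 2.61 and 4.098 CPM in HDM airways, and 1 of 10 HDM libraries lay below all PBS libraries. In parenchyma 8 of 10 HDM libraries, at 1.49, 3.04 and 3.96 CPM, were below all PBS libraries, at 3.60, 4.88 and 6.51 CPM. The log2FC was -0.70 in airway (standard error 0.16, adjusted p = 0.00017) and -0.77 in parenchyma (0.17, adjusted p = 7.2e-05). Endothelial marker genes also fell, all 5 in each tissue, from a median sum of 1064 to 513 CPM in airway and from 1577 to 704 CPM in parenchyma. Of 4 megakaryocyte and platelet markers 1 rose and 3 fell in airway, and 1 rose and 3 fell in parenchyma, while their sum was higher after HDM, at 23.6 and 49.7 CPM in airway and 21.7 and 72.01 CPM in parenchyma. The median sum over 5 smooth muscle markers went from 692 to 454 CPM in airway and from 164.5 to 147.4 CPM in parenchyma, with overlapping ranges. The part of these cells in the lower Tbxa2r was not tested.

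**Figure D2:**
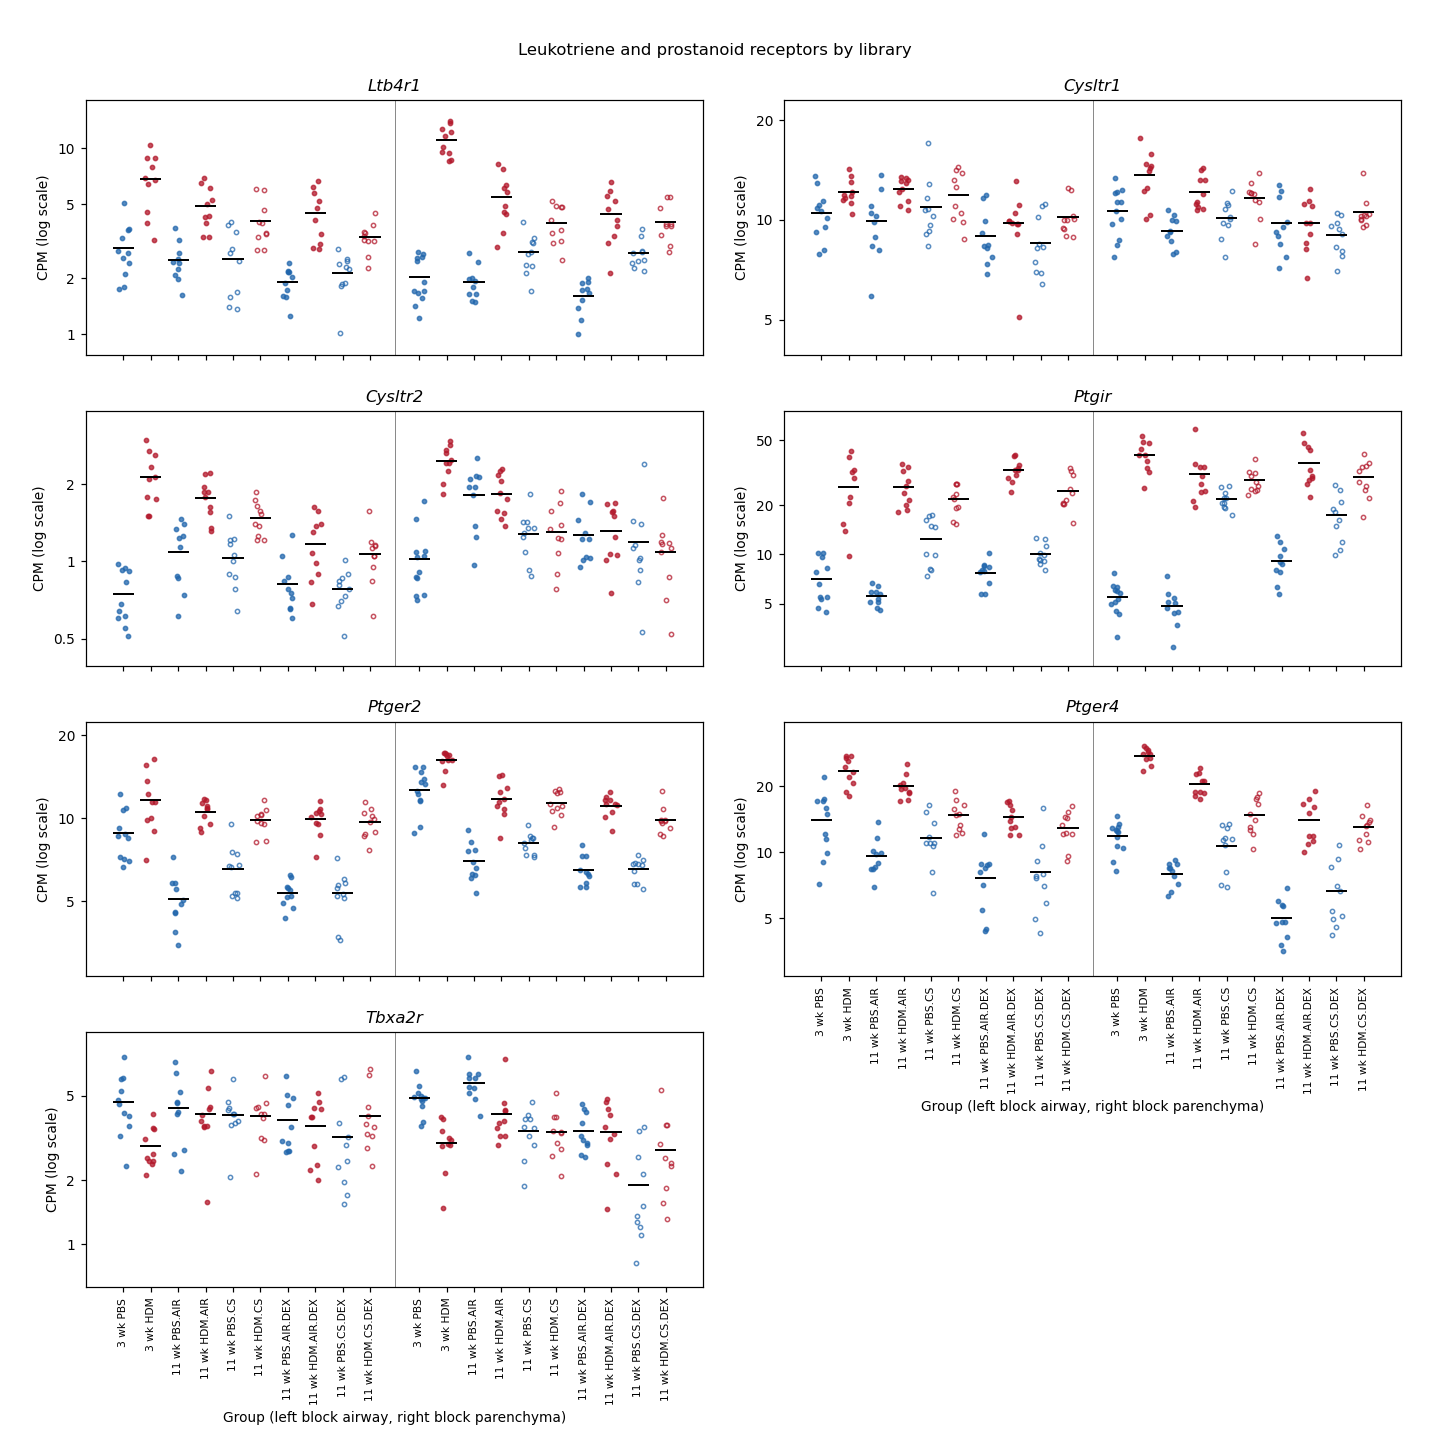
CPM of the leukotriene receptors Cysltr1, Cysltr2 and Ltb4r1 and the prostanoid receptors Ptger2, Ptger4, Ptgir and Tbxa2r in each library, on log axes, by group, with airway on the left and parenchyma on the right. Red points are HDM and blue points PBS libraries, open circles are smoke-exposed and black bars are group means. Ptgir and Ltb4r1 show separate HDM and PBS libraries in parenchyma at 3 weeks, whereas Cysltr1 lies between 7.71 and 13.4 CPM in PBS and between 10.1 and 17.7 CPM in HDM there.

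The effect of HDM at 3 weeks differed between the tissues for 5 of the 10 genes, each with the smaller rise in airway, where 6.44% of all genes had a lower effect in airway. The difference in log2FC, airway less parenchyma, was -1.21 for Ltb4r1 (standard error 0.27, adjusted p = 0.0024), -1.08 for Ptgir (0.32, adjusted p = 0.018), -1.05 for Ptafr (0.27, adjusted p = 0.0074), -0.86 for Lpcat2 (0.21, adjusted p = 0.0041) and -0.83 for Pla2g7 (0.24, adjusted p = 0.014). With sample quality weights the Ptgir difference was not called (adjusted p = 0.066). Over all genes called for this difference, 62.7% had the higher effect in airway in the main analysis and 42.1% with DESeq2 size factors.

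Unexposed airway and parenchyma were compared next. At 3 weeks 3 of the 10 differed between PBS airway and PBS parenchyma, where 56.1% of all genes did, and at 11 weeks 2 differed between the PBS.AIR groups, against 56.4%. Over the alternatives these counts ran from 2 to 6 at 3 weeks, with 6 by DESeq2, and from 1 to 6 at 11 weeks. Cysltr2 and Ptger2 were lower in airway at both times, with a log2 difference of -0.43 (0.17, adjusted p = 0.026) and -0.51 (0.11, adjusted p = 0.00022) at 3 weeks and -0.70 (0.16, adjusted p = 7e-05) and -0.45 (0.10, adjusted p = 3.7e-05) at 11 weeks. Lpcat2 was higher in airway at 3 weeks, by 0.38 (0.17, adjusted p = 0.047). The Cysltr2 difference at 3 weeks was lost in 3 alternatives (adjusted p = 0.063 to 0.20), and a difference in Ltb4r1 (log2 difference 0.50, adjusted p = 0.055) was called in 8.

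At 11 weeks, HDM.AIR mice had most of the set above PBS.AIR as well. In airway 9 of the 10 genes were higher and none lower, where 31.3% of all genes tested were higher. In parenchyma 8 were higher and 1 lower, against 32.6% and 26.9%. The median log2FC of the set was 1.10 in airway and 1.48 in parenchyma, with 0.00 and 0.05 for all genes. Rises of at least 2-fold were made by 6 genes in airway and 6 in parenchyma, against 10.6% and 13.0% of all genes. Groups were without overlap for 6 genes in airway and 7 in parenchyma, against 16.5% and 22.8%.

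Ptafr and Pla2g7 again rose most. Ptafr was at 10.1, 12.99 and 19.8 CPM in PBS.AIR airways and 59.6, 82.5 and 133.9 CPM in HDM.AIR airways. In parenchyma it was at 8.75, 11.45 and 14.8 CPM and at 66.55, 108.4 and 206.5 CPM. All HDM.AIR libraries were above all PBS.AIR libraries in both tissues. The increase was 6.61-fold in airway (log2FC 2.72, standard error 0.17, adjusted p = 1.6e-32) and 10.1-fold in parenchyma (3.34, 0.18, adjusted p = 6.4e-38). Pla2g7 rose 7.66-fold in airway (2.94, 0.14, adjusted p = 2.3e-44) and 7.80-fold in parenchyma (2.96, 0.14, adjusted p = 1.2e-44). The PAF-forming Lpcat2 rose 3.52-fold (1.81, 0.11, adjusted p = 4.8e-32) and 4.23-fold (2.08, 0.12, adjusted p = 1.9e-35).

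Ptgir rose more than any other receptor of leukotrienes or prostanoids in the set. It was at 4.565, 5.53 and 6.69 CPM in PBS.AIR airways and 18.2, 25.01 and 35.96 CPM in HDM.AIR airways, a 4.64-fold rise (adjusted p = 2.6e-21). In parenchyma it rose 6.47-fold (log2FC 2.69, standard error 0.20, adjusted p = 2.8e-25). Its groups were separate in both tissues. Of the prostaglandin E2 receptors, Ptger4 rose 2.14-fold in airway (1.10, 0.13, adjusted p = 3.6e-13) and 2.69-fold in parenchyma (1.43, 0.14, adjusted p = 1.9e-17), and Ptger2 2.15-fold in airway (1.10, 0.09, adjusted p = 3.7e-22) and 1.76-fold in parenchyma (0.81, 0.09, adjusted p = 9.9e-16).

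The leukotriene receptors moved unevenly. Ltb4r1 rose 1.99-fold in airway (log2FC 0.996, standard error 0.17, adjusted p = 1.5e-07) and 2.89-fold in parenchyma (1.53, 0.18, adjusted p = 4.4e-13). Cysltr1 rose 1.3-fold in airway (0.38, 0.10, adjusted p = 0.00071) and 1.37-fold in parenchyma (0.45, 0.11, adjusted p = 0.00011). Cysltr2 rose in airway, from a median of 1.19 to 1.82 CPM (0.74, 0.16, adjusted p = 1.7e-05). In parenchyma its medians were 1.95 CPM in PBS.AIR and 1.805 CPM in HDM.AIR, and no change was called (0.09, 95% interval -0.20 to 0.38, adjusted p = 0.62). Tbxa2r had a log2FC of -0.07 in airway (95% interval -0.47 to 0.32, adjusted p = 0.77) and fell in parenchyma (-0.44, 0.19, adjusted p = 0.045), a call lost in 4 alternatives (adjusted p = 0.060 to 0.084), among them the one without X63, X32, X81 and X70 (log2FC -0.39, adjusted p = 0.084).

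Macrophage markers were also higher at 11 weeks, 5 of 6 in airway and 4 of 6 in parenchyma, with median sums of 184.9 and 565 CPM in airway and 259.9 and 671 CPM in parenchyma. Ptafr was 6.53% of that sum in PBS.AIR and 16.6% in HDM.AIR airways, and 3.92% and 17.2% in parenchyma. Against the neutrophil sum it was 12.3% and 15.3% in airway and 4.64% and 15.5% in parenchyma. Cysltr1 was a smaller share of the macrophage sum after HDM, 2.2% against 5.36% in airway and 1.82% against 3.78% in parenchyma.

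At 11 weeks 2 genes differed in their HDM effect between the tissues, where 27.6% of all genes tested did. The Ptafr effect was smaller in airway (log2 difference -0.61, standard error 0.24, adjusted p = 0.048), a call lost in 7 alternatives (adjusted p = 0.053 to 0.080), which include leaving out X173 and X174, the 4 most deviant libraries or the 14 airway libraries with a parenchyma-like ratio. The Cysltr2 effect was larger in airway (0.65, 0.21, adjusted p = 0.015).

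The HDM effect at 11 weeks was compared with that at 3 weeks in one fit of all libraries. Week, HDM schedule and cohort changed together and cannot be told apart. In parenchyma the effect was smaller at 11 weeks for 5 of the 10 genes and larger for 1, against 20.9% and 21.5% of all genes tested. The log2 difference was -1.25 for Cysltr2 (standard error 0.21, adjusted p = 2.3e-07), -1.001 for Pla2g7 (0.21, adjusted p = 2.7e-05), -0.98 for Ltb4r1 (0.26, adjusted p = 0.0011), -0.88 for Ptafr (0.26, adjusted p = 0.0036) and -0.70 for Lpcat2 (0.18, adjusted p = 0.00083). For Ptger2 it was 0.38 (0.13, adjusted p = 0.012). In airway Cysltr2 had the smaller effect (-0.78, 0.22, adjusted p = 0.0039) and Ptger2 the larger (0.68, 0.14, adjusted p = 3.6e-05), 1 gene in each direction where 13.9% and 14.5% of all genes were called. The control levels are given beside these. Cysltr2 was at a median of 0.684 CPM in PBS airways at 3 weeks and 1.19 CPM in PBS.AIR airways at 11 weeks, and Ptger2 at 8.625 and 4.96 CPM. In the parenchyma of the same control groups Cysltr2 was at medians of 0.976 and 1.95 CPM, and Ptger2 at 12.94 and 6.76 CPM.

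**Figure D3:**
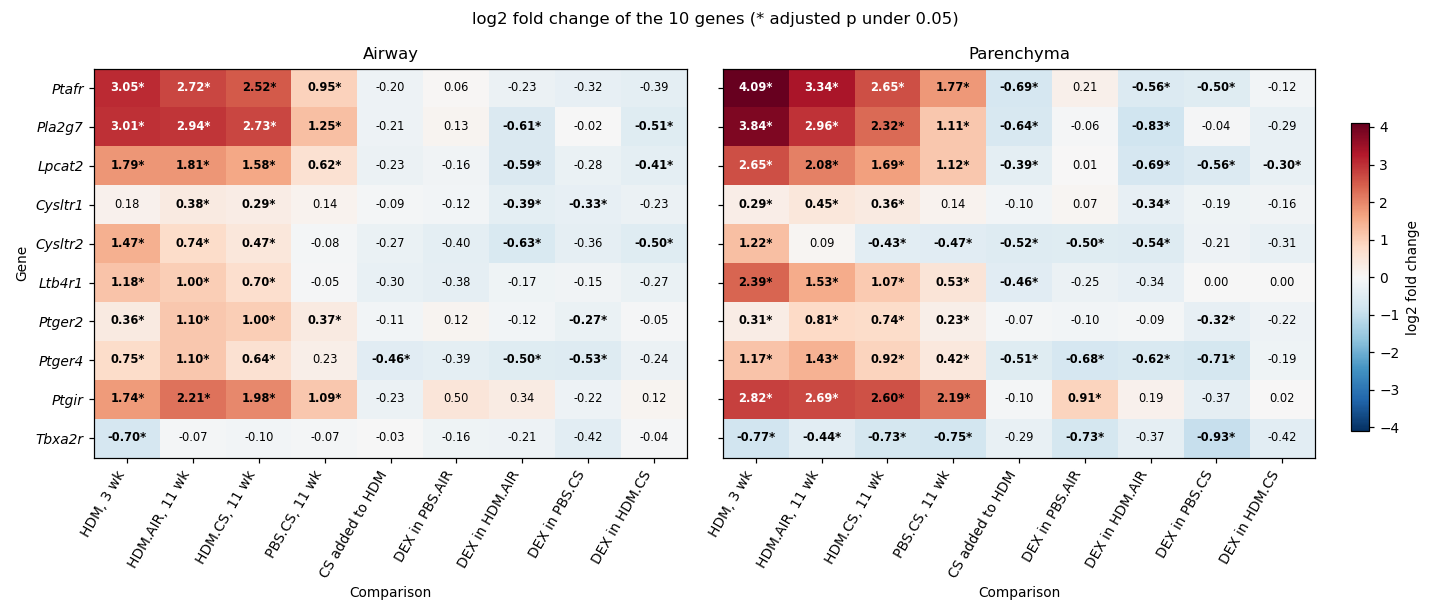
Log2 fold changes of the 10 genes, in rows, for the HDM, smoke and DEX comparisons, in columns, for airway and parenchyma, with an asterisk at an adjusted p-value under 0.05. In the HDM column at 3 weeks Ptafr stands at 3.05 in airway and 4.09 in parenchyma, and the DEX columns hold values between -0.93 and 0.91.

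Smoke alone was examined by comparing PBS.CS with PBS.AIR. In airway 5 of the 10 genes rose and none fell, where 7.66% of all genes tested rose, and in parenchyma 7 rose and 2 fell, where 17.7% rose and 18.2% fell. Groups were without overlap for 3 genes in airway and 4 in parenchyma, against 0.784% and 8.43% of all genes.

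Ptgir, the prostacyclin receptor, had the largest response of the set in parenchyma. It went from 2.72, 4.90 and 7.38 CPM in PBS.AIR to 17.3, 21.3 and 26.3 CPM in PBS.CS, a 4.57-fold rise (log2FC 2.19, standard error 0.21, adjusted p = 1.3e-17). In airway it went from 4.565, 5.53 and 6.69 CPM to 7.33, 12.4 and 17.3 CPM, a 2.13-fold rise (1.09, 0.20, adjusted p = 1.5e-05). Neither tissue showed overlap. The effect was larger in parenchyma (log2 difference, airway less parenchyma, -1.10, 0.29, adjusted p = 0.014), a call lost with the filter at 10 CPM (adjusted p = 0.064).

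Ptafr rose under smoke alone in both tissues. Its PBS.CS airway libraries were at 18.3, 23.6 and 44.7 CPM, with 8 of 10 above all PBS.AIR libraries. Its PBS.CS parenchyma libraries were at 21.6, 40.6 and 60.8 CPM, all above PBS.AIR. The rise was 1.93-fold in airway (log2FC 0.95, standard error 0.17, adjusted p = 9e-06) and 3.40-fold in parenchyma (1.77, 0.18, adjusted p = 7.7e-16). The smoke effect was smaller in airway (log2 difference -0.82, 0.25, adjusted p = 0.039), a call lost in 5 alternatives (adjusted p = 0.053 to 0.088), among them the one without X173 and X174 (log2 difference -0.82, adjusted p = 0.063). Ptafr and Ptgir were the 2 genes with a called difference between tissues, where 3.73% of all genes were called.

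The PAF enzymes also rose, Pla2g7 2.37-fold in airway (log2FC 1.25, standard error 0.13, adjusted p = 1.2e-13) and 2.16-fold in parenchyma (1.11, 0.13, adjusted p = 2.3e-12), and Lpcat2 1.54-fold (0.62, 0.12, adjusted p = 3.7e-05) and 2.17-fold (1.12, 0.12, adjusted p = 8.6e-14). Of the prostaglandin E2 receptors, Ptger2 rose 1.29-fold in airway (0.37, 0.10, adjusted p = 0.0038) and 1.18-fold in parenchyma (0.23, 0.09, adjusted p = 0.035). Ptger4 (0.42, 0.15, adjusted p = 0.024) and Ltb4r1 (0.53, 0.20, adjusted p = 0.03) rose in parenchyma. Without X173 and X174 the parenchyma calls of Ptger2 and Ltb4r1 were lost (adjusted p = 0.074 and 0.057).

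Smoke was followed by lower Cysltr2 and Tbxa2r in parenchyma. Cysltr2 went from a median of 1.95 to 1.32 CPM (log2FC -0.47, standard error 0.16, adjusted p = 0.012), and Tbxa2r from 5.78 to 3.53 CPM, with 8 of 10 smoke-exposed libraries below all PBS.AIR libraries (-0.75, 0.20, adjusted p = 0.0017). Macrophage markers rose under smoke too, 4 of 6 in airway and 5 of 6 in parenchyma, to median sums of 324 and 679 CPM. All 5 neutrophil markers rose in each tissue, from a median sum of 99.5 to 278 CPM in airway and from 231 to 543 CPM in parenchyma. As a share of the macrophage sum, Ptafr was at 8.35% in PBS.CS airways and 5.51% in PBS.CS parenchyma, compared with 6.53% and 3.92% in PBS.AIR. Against the neutrophil sum its median share was lower with smoke in airway, at 8.47% and 12.3% in PBS.CS and PBS.AIR, and higher in parenchyma, at 7.96% and 4.64%. Of the macrophage sum, Pla2g7 was at 7.49% in PBS.CS parenchyma and 7.78% in PBS.AIR parenchyma, and Ptgir at 3.19% and 1.76%.

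In mice that also received HDM, no gene of the set was higher with smoke than without it. Between HDM.CS and HDM.AIR, 1 gene fell in airway and 6 fell in parenchyma, where 10.1% and 14.1% of all genes tested fell. In airway this was Ptger4 (log2FC -0.46, standard error 0.12, adjusted p = 0.0029). In parenchyma Ptafr fell (-0.69, 0.15, adjusted p = 0.00011), from a median of 108.4 to 69.7 CPM. The others were Pla2g7 (-0.64, 0.13, adjusted p = 3.5e-05), Cysltr2 (-0.52, 0.15, adjusted p = 0.0063), Ptger4 (-0.51, 0.12, adjusted p = 0.00063), Ltb4r1 (-0.46, 0.16, adjusted p = 0.02) and Lpcat2 (-0.39, 0.10, adjusted p = 0.00076). Ptgir had a log2FC of -0.10 there (95% interval -0.37 to 0.18, adjusted p = 0.67). Several leukocyte markers fell beside them in parenchyma, 3 of 4 of monocytes (median sums 376.5 and 214 CPM without and with smoke), 5 of 6 of T cells (159.3 and 91.6 CPM) and all 4 of B cells (259 and 140.3 CPM). Of the eosinophil markers 1 fell (6.36 and 3.525 CPM) and of the neutrophil markers none (704 and 541 CPM). Of the macrophage markers 2 rose and 1 fell, with sums of 671 and 758 CPM. The part of these cells in the lower levels was not tested.

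The smoke effect in HDM less the smoke effect in PBS was tested directly. It was negative for 6 genes in airway and 7 in parenchyma and positive for none, where 11.4% and 18.7% of all genes tested were negative. In parenchyma the log2 difference was -2.46 for Ptafr (standard error 0.23, adjusted p = 4.1e-17), -2.29 for Ptgir (0.25, adjusted p = 6.4e-14), -1.76 for Pla2g7 (0.18, adjusted p = 1.3e-14) and -1.51 for Lpcat2 (0.16, adjusted p = 6.9e-15). Smaller differences were found for Ltb4r1 (-0.99, 0.25, adjusted p = 0.0009), Ptger4 (-0.93, 0.20, adjusted p = 4.8e-05) and Ptger2 (-0.31, 0.12, adjusted p = 0.034), the last lost without X173 and X174 (-0.24, adjusted p = 0.10). In airway it was -1.46 for Pla2g7 (0.18, adjusted p = 7.4e-10), -1.33 for Ptgir (0.25, adjusted p = 2.3e-05), -1.15 for Ptafr (0.23, adjusted p = 5.6e-05), -0.85 for Lpcat2 (0.15, adjusted p = 1.2e-05), -0.69 for Ptger4 (0.18, adjusted p = 0.0034) and -0.48 for Ptger2 (0.13, adjusted p = 0.0031).

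Against PBS.AIR, mice given HDM and smoke together had 9 genes higher in airway and none lower, with 25.2% of all genes tested higher, and all 10 changed in parenchyma, 8 higher and 2 lower, where 47.4% of all genes changed. Ptafr was 5.74-fold higher in airway (log2FC 2.52, standard error 0.17, adjusted p = 2.7e-29) and 6.26-fold in parenchyma (2.65, 0.18, adjusted p = 1e-28). Ptgir was 3.95-fold (1.98, 0.19, adjusted p = 7.3e-18) and 6.06-fold higher (2.599, 0.20, adjusted p = 1.6e-23). The genes that were lower in parenchyma were Cysltr2 (-0.43, 0.16, adjusted p = 0.016) and Tbxa2r (-0.73, 0.20, adjusted p = 0.0016). The comparisons of HDM, of smoke and of both with PBS.AIR share those PBS.AIR libraries.

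DEX was compared with no DEX within each of the 4 exposures. In HDM.AIR, 5 genes fell in airway and 6 in parenchyma, with none higher, where 16.0% and 16.2% of all genes tested fell. Both PAF enzymes were among them, Lpcat2 in airway (log2FC -0.59, standard error 0.10, adjusted p = 3.1e-07) and parenchyma (-0.69, 0.10, adjusted p = 6e-09) and Pla2g7 in airway (-0.61, 0.13, adjusted p = 5.4e-05) and parenchyma (-0.83, 0.13, adjusted p = 4.5e-08). The level of Pla2g7 in HDM.AIR.DEX airways was 68, 89.7 and 126.4 CPM, against 104.3, 130.6 and 212 CPM without DEX and at most 26.8 CPM in PBS.AIR. Ptafr was called in parenchyma, where it went from 66.55, 108.4 and 206.5 CPM to 58.3, 70.99 and 138.6 CPM (-0.56, 0.15, adjusted p = 0.0018). In airway its medians were 82.5 and 77.9 CPM and no change was called (-0.23, 95% interval -0.51 to 0.06, adjusted p = 0.26). The difference between the tissues in this effect was not tested.

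Among the eicosanoid receptors, Ptger4 fell in HDM.AIR airways from 17.2, 19.6 and 25.4 CPM to 11.99, 14.2 and 17.2 CPM (log2FC -0.50, standard error 0.12, adjusted p = 0.00065). The groups did not overlap, as for 2.98% of all genes. It also fell in parenchyma (-0.62, 0.13, adjusted p = 3.7e-05). Cysltr2 fell in airway (-0.63, 0.16, adjusted p = 0.00082) and parenchyma (-0.54, 0.16, adjusted p = 0.0046), and Cysltr1 likewise (-0.39, 0.10, adjusted p = 0.0019, and -0.34, 0.11, adjusted p = 0.01). Ptgir had a positive log2FC of 0.34 in airway (95% interval 0.07 to 0.61, adjusted p = 0.051), which 4 alternatives called, and 0.19 in parenchyma (-0.08 to 0.46, adjusted p = 0.33).

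Marker genes of several leukocytes were lower with DEX in HDM.AIR. Of 4 monocyte markers, 3 fell in airway and 3 in parenchyma, with median sums of 359 and 162.3 CPM in airway without and with DEX, and 376.5 and 163.7 CPM in parenchyma. All 4 B cell markers fell in both tissues, and T cell markers fell, 5 of 6 in airway and 6 of 6 in parenchyma. Of the macrophage markers 1 rose and 1 fell in airway and 1 fell in parenchyma, with sums of 565 and 651 CPM in airway and 671 and 743 CPM in parenchyma. Neutrophil markers had median sums of 596 and 418 CPM in airway without and with DEX, and 704 and 507 CPM in parenchyma. For eosinophil markers these were 7.43 and 3.07 CPM in airway and 6.36 and 3.32 CPM in parenchyma. The ranges of both sums overlapped in each tissue. The part of these cells in the DEX results was not tested. HDM.AIR.DEX airway held 5 of the 14 libraries with a parenchyma-like marker ratio.

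In PBS.AIR airways, DEX changed none of the 10 genes by limma, where 14.9% of all genes tested changed. At an unadjusted p under 0.05 there were 3, and edgeR and DESeq2 each called 1. In PBS.AIR parenchyma 1 rose and 3 fell, against 10.6% and 12.0% of all genes. Ptgir rose from a median of 4.90 to 8.84 CPM (log2FC 0.91, standard error 0.23, adjusted p = 0.0013). Tbxa2r (-0.73, 0.20, adjusted p = 0.0037), Ptger4 (-0.68, 0.18, adjusted p = 0.0021) and Cysltr2 (-0.50, 0.16, adjusted p = 0.012) fell. The DEX effect in HDM.AIR less that in PBS.AIR was negative for Pla2g7 in airway (-0.73, 0.19, adjusted p = 0.0079), 1 gene where 3.52% of all genes were negative. In parenchyma it was negative for 3 genes, against 6.38%, namely Ptafr (-0.77, 0.25, adjusted p = 0.025), Pla2g7 (-0.77, 0.19, adjusted p = 0.0031) and Lpcat2 (-0.70, 0.17, adjusted p = 0.0027). With edgeR, DESeq2 or quality weights it was called for 5, as differences in Cysltr1 (-0.41, adjusted p = 0.065) and Ptgir (-0.72, adjusted p = 0.057) were called in 4 and 3 alternatives.

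In smoke-exposed mice without HDM, DEX lowered 3 genes in airway and 5 in parenchyma, where 6.6% and 9.49% of all genes tested fell. Ptger4 fell in airway (log2FC -0.53, standard error 0.15, adjusted p = 0.0075) and parenchyma (-0.71, 0.16, adjusted p = 0.00043), and Ptger2 likewise (-0.27, 0.10, adjusted p = 0.048, and -0.32, 0.09, adjusted p = 0.0068). The other airway gene was Cysltr1 (-0.33, 0.11, adjusted p = 0.029). The airway call of Ptger2 was lost in 8 alternatives (adjusted p = 0.052 to 0.25) and that of Cysltr1 in 2 (0.074 and 0.10), among them for both the one without X173 and X174 (adjusted p = 0.14 and 0.10). In parenchyma Tbxa2r went from a median of 3.53 to 1.43 CPM (-0.93, 0.25, adjusted p = 0.0038), and Lpcat2 (-0.56, 0.11, adjusted p = 8.1e-05) and Ptafr (-0.50, 0.15, adjusted p = 0.012) fell. In HDM.CS mice DEX lowered 3 genes in airway, where 7.05% of all genes fell, and 1 in parenchyma, where 5.4% did. These were Pla2g7 (-0.51, 0.13, adjusted p = 0.0023), Lpcat2 (-0.41, 0.10, adjusted p = 0.0016) and Cysltr2 (-0.50, 0.16, adjusted p = 0.026) in airway, the last lost without the 14 airway libraries (adjusted p = 0.084), and Lpcat2 (-0.30, 0.10, adjusted p = 0.042) in parenchyma. The Lpcat2 call in parenchyma was lost in 5 alternatives (adjusted p = 0.056 to 0.098), and over the alternatives the count there ran from 0 to 3, with Ptger2 (-0.22, adjusted p = 0.067) called in 3 and Pla2g7 in 1.

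Levels of different genes were compared per kilobase of exon. Pla2g7 had the highest and Cysltr2 the lowest mean level of the set in each of the 20 groups. In 3 week HDM parenchyma the mean was 108.6 CPM per kilobase for Pla2g7, 65.7 for Ptafr, 18.98 for Lpcat2, 12.1 for Ptgir, 7.93 for Ltb4r1 and 0.857 for Cysltr2. In the order of the 20 groups by mean CPM, every pair of neighbours overlapped in their libraries for each of the 10 genes. For Ptafr the mean was highest in 3 week HDM parenchyma, at 239 ± 34.6 CPM (SD, n = 10), followed by 3 week HDM airway at 147.2 ± 57.7 CPM (SD, n = 10), and lowest in PBS.AIR parenchyma, at 11.7 ± 2.215 CPM (SD, n = 10). Its means in the 4 groups with HDM and DEX lay between 59.2 and 81.1 CPM, and those of PBS.AIR.DEX were 13.8 CPM in airway and 13.55 CPM in parenchyma.

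**Figure D4:**
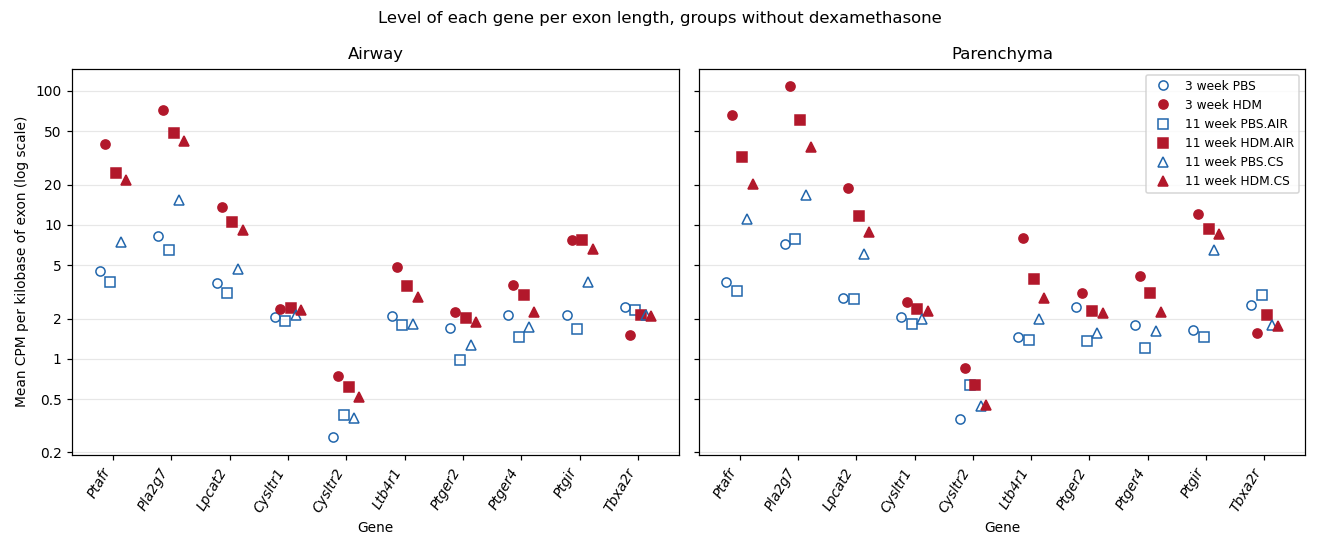
Group mean level of each of the 10 genes as CPM per kilobase of exon, on a log axis, in the groups without DEX, with airway in the left and parenchyma in the right panel. Filled red symbols are HDM and open blue symbols PBS groups, and the symbol shape gives the week and smoke. Pla2g7 reaches 108.6 CPM per kilobase in 3 week HDM parenchyma, and Cysltr2 is at most 0.857.

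Over the 20 group means of log2 CPM, the genes most like each one were found by Pearson correlation among 18361 genes. The groups share exposures, tissues and cell composition, so the values describe these means only. Ptafr was most like Fcgr2b (r = 0.993), an inhibitory receptor for IgG, Gm20056 (0.989) and Cotl1 (0.989). Pla2g7 was most like Fcgr2b (0.986), Ms4a6d (0.984) and P2ry6 (0.983), and Lpcat2 most like Unc93b1 (0.986), a chaperone of Toll-like receptors, Cotl1 (0.985) and Lrrc25 (0.985). Ltb4r1 was most like Rbpj (0.982), Rab32 (0.977) and Ebi3 (0.968), Ptgir most like Gusb (0.988), a lysosomal enzyme, Myo5a (0.986) and Gm26902 (0.984), and Ptger4 most like Ly86 (0.982), Rgs14 (0.981) and Aif1 (0.979). Ptger2 was most like AI413582 (0.965), Golt1b (0.965) and Ostm1 (0.962), Cysltr1 most like A530064D06Rik (0.952), E330020D12Rik (0.935) and Pold4 (0.935), and Cysltr2 most like Parp14 (0.949), Rnf213 (0.947) and Kcna3 (0.944). For Tbxa2r the highest correlation was with Bcl2 (0.87). Within the set, Ptafr correlated with Pla2g7 at 0.989, Lpcat2 at 0.987, Ltb4r1 at 0.95 and Ptgir at 0.933, but with Tbxa2r at -0.351.

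Other genes of the pathway rose and fell. Of 10 other lipid mediator receptors, 7 could be tested at 3 weeks, of which 3 rose and 3 fell in airway and 4 rose and 2 fell in parenchyma after HDM. Fpr2, a receptor of formyl peptides and lipoxins, rose in airway (log2FC 2.19, standard error 0.24, adjusted p = 5.9e-11) and parenchyma (2.20, 0.23, adjusted p = 1.1e-11). Ptgfr, the prostaglandin F receptor, fell in both (-1.92, 0.25, adjusted p = 8.1e-09, and -1.95, 0.39, adjusted p = 2.2e-05). At 11 weeks 8 could be tested, with 2 higher and 1 lower in airway and 3 higher and 2 lower in parenchyma. Ptgdr, a prostaglandin D2 receptor, rose in parenchyma (3.75, 0.80, adjusted p = 2e-05), as did Ptger3, a prostaglandin E2 receptor (2.20, 0.42, adjusted p = 2.1e-06). In airway neither Ptgdr (0.91, 0.57, adjusted p = 0.16) nor Ptger3 (-0.28, 0.30, adjusted p = 0.42) was called.

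Of 6 other genes of PAF and lysophospholipid metabolism, 1 rose and 3 fell in airway and 2 rose and 4 fell in parenchyma at 3 weeks. Lpcat1, an acyltransferase of alveolar type II cells, fell in airway (log2FC -0.49, standard error 0.18, adjusted p = 0.016) and parenchyma (-0.82, 0.19, adjusted p = 0.00014), opposite to Lpcat2. Pafah2, an intracellular PAF acetylhydrolase, also fell (-0.44, 0.07, adjusted p = 1.5e-07, and -0.69, 0.07, adjusted p = 1.8e-11), opposite to Pla2g7. Pla2g4a, the cytosolic phospholipase A2 that releases the PAF precursor, rose in parenchyma (0.93, 0.11, adjusted p = 2.7e-10) and was not called in airway (0.17, 0.10, adjusted p = 0.12). Pafah1b3, a subunit of another intracellular PAF acetylhydrolase, rose in airway (0.29, 0.07, adjusted p = 0.00049) and parenchyma (0.42, 0.08, adjusted p = 1.1e-05). At 11 weeks 2 of the 6 rose and 2 fell in airway. Pafah1b3 (0.88, 0.11, adjusted p = 1.5e-11) and Lpcat1 (0.64, 0.15, adjusted p = 0.00015) were higher there. Pafah2 (-0.48, 0.08, adjusted p = 6.4e-08) and Pla2g4a (-0.31, 0.10, adjusted p = 0.0041) were lower. In parenchyma 2 rose and 2 fell, with Pafah1b3 (1.17, 0.13, adjusted p = 2.9e-15) and Pla2g4a (0.98, 0.10, adjusted p = 1.1e-15) higher and Pafah2 again lower (-0.23, 0.08, adjusted p = 0.0096). Under DEX in HDM.AIR, Lpcat1 rose by 0.69 in airway and 0.69 in parenchyma on the log2 scale, Pafah2 rose by 0.46 and 0.41, and Pafah1b3 changed by -0.55 and -0.45.

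Of 13 genes of ligand synthesis, 6 rose and 4 fell in airway and 6 rose and 3 fell in parenchyma at 3 weeks. They include a higher thromboxane synthase, Tbxas1 (log2FC 1.91, standard error 0.18, adjusted p = 1.3e-12, and 2.38, 0.18, adjusted p = 9.3e-16), and a lower prostacyclin synthase, Ptgis (-1.59, 0.16, adjusted p = 8.8e-12, and -1.96, 0.17, adjusted p = 3.7e-14), each opposite in direction to its receptor. Hpgds, a prostaglandin D2 synthase, rose in airway (1.66, 0.17, adjusted p = 1.9e-11) and parenchyma (1.53, 0.21, adjusted p = 2.6e-08). Ptgds, another prostaglandin D2 synthase, fell in airway (-1.53, 0.28, adjusted p = 6.9e-06) and parenchyma (-1.66, 0.30, adjusted p = 5e-06). Ptges, a prostaglandin E2 synthase, also rose in airway (1.13, 0.11, adjusted p = 1.3e-11) and parenchyma (1.73, 0.12, adjusted p = 3.2e-16). Of 5 genes of ligand inactivation and transport, 2 rose and 2 fell in airway and 2 rose and 1 fell in parenchyma. Hpgd, which inactivates prostaglandins, fell (-2.83, 0.18, adjusted p = 2.6e-17, and -2.76, 0.18, adjusted p = 1.7e-17), and Cyp4f18, which oxidizes leukotriene B4, rose (1.93, 0.16, adjusted p = 2.2e-14, and 2.26, 0.16, adjusted p = 2.1e-16).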

How the data were processed

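RNA from dissected airway and parenchyma was sequenced as single reads of 100 bases. The deposited table holds expected counts per gene for 203 libraries, which the authors made with STAR 2.5.1b on mm10 and with RSEM 1.2.31 and kallisto 0.44.0 named for quantification. Which of these made the table is not stated. Since 20.3% of values above 0 were fractional (tolerance 1e-06), counts were rounded. Symbols were taken by stable identifier from GENCODE M21, which gave one to 42462 of 43346 identifiers. With the version included, 23106 of the 43346 matched M21 and 20240 did not.

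Genes were kept where at least 9 libraries reached the CPM equal to 10 counts in the median library, which left 17381 genes in 43 libraries at 3 weeks, 18250 in 160 libraries at 11 weeks and 18528 in all 203. Counts were scaled by TMM (edgeR 4.0.16) and fitted by limma 3.58.1 with voom in R 4.3.3, with 1 coefficient per group and Benjamini-Hochberg adjustment within each comparison. The fit of all 203 libraries served only the comparison of 11 with 3 weeks. The scripts were tested on simulated counts. The alternatives tried were DESeq2 1.42.0, its size factors alone, the quasi-likelihood test of edgeR, a filter at 10 CPM, no filter, all libraries in one fit, tissues fitted apart, sample quality weights, neighbouring codes as a block and libraries left out.

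The 10 genes, the other gene lists and the tests were chosen with earlier results of these data known. Beyond the 10 genes, the text names genes only from the up to 3 called ones of each other list with the largest absolute log2FC in a comparison, and from the 3 whose group means correlated best with each gene. Not every gene so eligible is named. Upstream sequences are from RefSeq (GRCm38.p6), which had windows for 9 of the 10 genes, without Cysltr1.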

Additional observations from a re-analysis of the deposited data

Results flagged for a closer look

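Single libraries stood apart from the rest of their group in 8 of 180 tests, a test being 1 gene in 1 group, and chance alone gives about 1 in 20. In HDM.AIR.DEX parenchyma, Ptafr reached 138.6 CPM in X52 and Pla2g7 reached 160 CPM in X152. Cysltr1 was at 17.0 CPM in X174 of PBS.CS airway, 5.10 CPM in X151 of HDM.AIR.DEX airway and 13.9 CPM in X20 of HDM.CS.DEX parenchyma. Cysltr2 was at 2.41 CPM in X36 of PBS.CS.DEX parenchyma. In HDM.AIR parenchyma, Ptgir was at 58.1 CPM in X150 and Tbxa2r at 7.46 CPM in X130.

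Effects of the same exposure differed by a test of the difference in 17 instances. For HDM at 3 weeks the log2 difference, airway less parenchyma, was -1.05 for Ptafr, -0.83 for Pla2g7, -0.86 for Lpcat2, -1.21 for Ltb4r1 and -1.08 for Ptgir. At 11 weeks it was -0.61 for Ptafr and 0.65 for Cysltr2, and for smoke alone -0.82 for Ptafr and -1.10 for Ptgir. Between 11 and 3 weeks of HDM it was -0.78 for Cysltr2 and 0.68 for Ptger2 in airway. In parenchyma it was -0.88 for Ptafr, -1.0 for Pla2g7, -0.70 for Lpcat2, -1.25 for Cysltr2, -0.98 for Ltb4r1 and 0.38 for Ptger2.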

How the results depend on the processing

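The labels pair no libraries and no groups share a code, but neighbouring codes (X1 and X2, X3 and X4) held 1 airway and 1 parenchyma library of the same exposure. Deviations from the group means correlated above 0.1 in 15 of 21 such pairs at 3 weeks (median 0.18, -0.22 to 0.42) and in 73 of 80 at 11 weeks (median 0.29, 0.02 to 0.62), and 52.4% of the 42 and 77.5% of the 160 libraries correlated best with their neighbour among the libraries of the other tissue in the same exposure. With these pairs as a replicate block (estimated correlation 0.13 and 0.35), a fit chosen after seeing the data, 6 in place of 2 genes differed between PBS.AIR tissues, adding Pla2g7 (-0.25, adjusted p = 0.039), Ltb4r1 (0.40, 0.019), Ptger4 (0.30, 0.021) and Tbxa2r (-0.40, 0.01). The tissue difference of the HDM effect at 11 weeks went from 2 to 4 genes, that of smoke from 2 to 4, and the latter over all genes from 680 to 2308. Over all comparisons and alternatives, 3182 values of single genes kept their side of the threshold, 43 lost the call and 58 gained it. None changed direction with a call, and values without a call in either fit were not counted by direction. The number of the 10 genes called stayed within 1.5 times the reported count in 303 recomputed counts and moved further in 34. The filter at 10 CPM tested only 7 of the 10 genes. With DESeq2, 6 genes in place of 3 differed between PBS tissues at 3 weeks, and 4 in place of 2 between PBS.AIR tissues, where quality weights also gave 4 and the filter at 10 CPM gave 1. For DEX in PBS.AIR airway the count of 0 became 1 with edgeR, DESeq2, the filter at 10 CPM or without X173 and X174, and in PBS.AIR parenchyma 4 became 2 with the filter at 10 CPM. For DEX in PBS.CS airway 3 became 1 with tissues fitted apart or without X173 and X174. For DEX in HDM.CS parenchyma 1 became 0 with DESeq2, its size factors, no filter or all libraries in one fit, 2 with the filter at 10 CPM and 3 with quality weights. The DEX effect in HDM.AIR less that in PBS.AIR in parenchyma went from 3 to 5 genes with edgeR, DESeq2 or quality weights. For the tissue difference of the HDM effect at 11 weeks, 2 became 0 with the filter at 10 CPM and 1 with no filter, all libraries in one fit, without the 4 most deviant or without the 14 airway libraries. For that of smoke, 2 became 0 with the filter at 10 CPM and 1 with no filter, all libraries in one fit, quality weights or without X173 and X174. The airway difference between 11 and 3 weeks went from 2 to 1 with the filter at 10 CPM. Beyond the fewer genes and libraries, the cause of these changes was not tested.

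Over all genes, the calls for the tissue difference of smoke went from 680 to 1032 with DESeq2, 388 with the filter at 10 CPM and 345 without X173 and X174, and those between PBS tissues at 3 weeks from 9744 to 6298 with that filter. Quality weights raised the DEX calls in PBS.CS parenchyma from 3080 to 4964, in HDM.CS airway from 1697 to 3085, in HDM.CS parenchyma from 1434 to 2949, in PBS.AIR parenchyma from 4124 to 6431, and for the airway difference between HDM.AIR and PBS.AIR from 844 to 1617. Without the 14 airway libraries the last became 256, and the DEX calls in HDM.AIR airway went from 5211 to 3086. With DESeq2 the share of higher calls went from 24.16% to 34.95% for DEX in HDM.CS airway, from 31.3% to 42.1% in HDM.CS parenchyma and from 23.9% to 37.1% for that airway difference. Leaving out the 4 most deviant and the 14 airway libraries was chosen after seeing the data.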
